A study of Mus musculus with 6 samples.

Results

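The 4 Janus kinases (JAKs) and the 3 Pim kinases were followed in eosinophils grown from mouse bone marrow and treated for 24 h with extracellular vesicles (EVs) from activated TH2 cells. The 7 genes, Jak1, Jak2, Jak3, Tyk2, Pim1, Pim2 and Pim3, were taken by symbol from the 16254 genes of the count table, and all 7 had enough counts to be among the 13498 genes tested. After EV treatment, Pim1, Pim2, Pim3 and Jak2 mRNA was higher, by 3.80-fold, 10.9-fold, 3.92-fold and 2.66-fold. Jak1, Tyk2 and Jak3 did not pass the test.

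The RNA of 3 cultures given EVs and 3 given sham was sequenced to ask what TH2 cell EVs change in eosinophils. All cultures came from C57BL/6 bone marrow (mice of 6 to 12 weeks), were driven to eosinophils with FLT3 ligand and stem cell factor followed by IL-5, and were used on day 12. The EV group received 5e+09 EVs per ml, purified from the medium of restimulated TH2 cells by ultrafiltration and size exclusion chromatography, and the sham group an equal volume of medium that had held no cells and was processed in parallel. Libraries were made from poly(A) RNA of whole cultures, which the labels call biological replicates without saying whether they came from separate mice, so the p-values measure the spread between these cultures. The cells were cultured, not tissue, eosinophils, and the sources used here name no batch or date for either group.

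JAKs are tyrosine kinases held on the inner tails of cytokine receptors. When a cytokine brings the receptor chains together, the JAKs activate each other and phosphorylate the receptor and the STAT transcription factors that dock on it. JAK2 serves the common β chain shared by the receptors for IL-3, IL-5 and GM-CSF, the cytokines that keep eosinophils alive. Pim kinases are serine/threonine kinases that are active as soon as they are made, so their amount is set largely by transcription and by the turnover of mRNA and protein. Pim genes are known targets of STATs, and their products phosphorylate proteins of survival and translation such as BAD.

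The genes lie on different chromosomes, given here on GRCm38 from the GENCODE vM21 annotation. Jak1 (chr4:101152367-101265282), Jak2 (chr19:29251828-29313080), Jak3 (chr8:71676296-71690575) and Tyk2 (chr9:21104068-21131243) each have 25 exons in their longest coding transcript. Pim1 (chr17:29490753-29496112), Pim2 (chrX:7878262-7883432) and Pim3 (chr15:88862186-88865726) are short genes of 6 exons. Jak1 and Tyk2 are on the minus strand and the others on the plus strand. Sequence shared with other genes was small for most members. Of the 31-base words of their transcripts, none of Jak2 and Pim3, 0.0273% of Jak1, 0.355% of Pim1 and 1.2% of Tyk2 also occurred in another gene. For Pim2 this was 4.52%, shared with Gm7645, and for Jak3 8.29%, mostly with Insl3, which overlaps it on the same strand. The processed pseudogene Gm12785 overlaps Jak1 on the same strand. On the opposite strand, annotated genes overlap Jak1 (Raver2 and Gm24468), Tyk2 (1700084C06Rik) and Pim1 (Gm26885). Reads of such partners cannot be told apart without strand, and whether the counting used strand is not given in the sources used here.

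The promoters of the 4 kinases whose mRNA rose are shown because these genes moved in the same direction, though by different amounts. Each is the reference sequence from RefSeq on GRCm38.p6, from 250 bases before to 50 bases after the annotated start, 5′ to 3′ on the strand of the gene. They are chr19:29251553-29251852 for Jak2, chr17:29490535-29490834 for the upstream start of Pim1, chrX:7878056-7878355 for Pim2 and chr15:88861944-88862243 for Pim3, all on the plus strand. Capitals mark the GC box GGGCGG and the CCAAT box, each on either strand.
Jak2: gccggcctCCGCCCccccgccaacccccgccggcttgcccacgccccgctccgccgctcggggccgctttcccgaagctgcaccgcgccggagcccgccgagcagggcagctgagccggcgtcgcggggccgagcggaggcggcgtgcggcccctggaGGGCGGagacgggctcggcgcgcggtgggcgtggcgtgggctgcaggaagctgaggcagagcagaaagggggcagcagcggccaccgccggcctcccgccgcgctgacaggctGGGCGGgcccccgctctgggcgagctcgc
Pim1: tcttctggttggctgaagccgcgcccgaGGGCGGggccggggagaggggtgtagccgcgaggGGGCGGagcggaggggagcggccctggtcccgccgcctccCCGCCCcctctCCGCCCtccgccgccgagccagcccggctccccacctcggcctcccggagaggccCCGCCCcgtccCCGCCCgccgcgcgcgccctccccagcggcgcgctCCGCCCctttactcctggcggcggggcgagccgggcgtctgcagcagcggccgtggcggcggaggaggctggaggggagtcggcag
Pim2: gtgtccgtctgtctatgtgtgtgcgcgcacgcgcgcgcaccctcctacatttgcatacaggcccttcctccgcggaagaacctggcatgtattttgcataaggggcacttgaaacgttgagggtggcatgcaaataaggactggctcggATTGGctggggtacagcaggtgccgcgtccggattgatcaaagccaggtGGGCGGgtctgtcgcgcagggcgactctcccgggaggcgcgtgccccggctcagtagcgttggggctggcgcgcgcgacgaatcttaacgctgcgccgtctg
Pim3: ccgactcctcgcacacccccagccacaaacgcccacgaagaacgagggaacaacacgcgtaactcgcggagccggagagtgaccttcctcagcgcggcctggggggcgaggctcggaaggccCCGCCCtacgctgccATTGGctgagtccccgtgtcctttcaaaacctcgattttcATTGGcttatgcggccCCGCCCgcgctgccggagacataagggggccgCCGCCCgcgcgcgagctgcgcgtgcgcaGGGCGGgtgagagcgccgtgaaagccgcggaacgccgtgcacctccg

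The promoters shown were rich in G and C. GC content was 81.0% for Jak2, 81.3% for Pim1, 62.7% for Pim2 and 69.0% for Pim3, against a median of 52.7% over 32851 RefSeq promoters of the same length. A downstream start of Pim1 (chr17:29492835-29493134), not shown, had 49.0%, below that median, and no GC box. The promoters of the members that did not pass the test had 64.7% for Jak1, 54.3% for Jak3 and 58.0% for Tyk2. The GC box occurred 7 times at the upstream start of Pim1, 4 times at Pim3, 3 times at Jak2 and once at Pim2, and also once each at Jak1 and Jak3 and 2 times at Tyk2, and 35.7% of all promoters held at least 1. The CCAAT box occurred 2 times at Pim3, once at Pim2, 3 times at Tyk2 and once at Jak1, and 37.4% of all promoters held it. The STAT motifs TTCNNNGAA, found in 8.3% of promoters, and TTCNNNNGAA, found in 6.95%, occurred in none of the windows of the 7 genes, nor at the downstream start of Pim1. This says only that these letters are not in these windows. TATAAA was in none of them either (13.6% of promoters), the E-box CACGTG only at the downstream start of Pim1 (7.15%) and the CRE motif TGACGTCA only at Jak1 (1.79%). All motifs were searched on both strands.

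Expression was compared as normalized counts, which are the authors' estimated counts divided by the relative library size after TMM scaling. Calls rest on edgeR's quasi-likelihood test, fitted to all 13498 genes, with 0.01 as the limit on the adjusted p. By this rule 4 of the 7 members were called higher and 0 lower. Over all genes tested, 12.1% were called higher and 11.6% lower. All 4 also had a log2 fold change of at least 1, which held with a higher call for 3.1% of all genes. In 5 members every EV-treated culture was above every sham-treated culture, against 24.8% of all genes, and in none was every EV-treated culture below, against 24.7%.

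Pim1, the best known of the family as a survival kinase downstream of cytokine receptors, was the most abundant of the 7 in counts and per length after treatment. Its normalized counts were 9191, 8641 and 8836 in the sham-treated cultures and 32550, 35609 and 33277 in the EV-treated cultures. The 3 EV values were all high, and the lowest EV value was 3.54 times the highest sham value. The mean rose from 8890 ± 279 to 33812 ± 1598 (SD, n = 3 each), a log2 fold change of 1.93 (SE 0.0572) and a fold of 3.80 with a 95% interval of 3.48 to 4.16. EdgeR's quasi-likelihood test gave an adjusted p of 2.04e-08. By mean normalized count in the EV-treated cultures Pim1 was 81st of the genes tested, counted from the highest.

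Pim2, a family member that phosphorylates much the same substrates, had the largest fold change of the 7. It had 315, 237 and 451 normalized counts in the sham-treated cultures and 3597, 3529 and 3841 in the EV-treated cultures. Its raw estimated counts in the sham-treated cultures were 350, 193 and 371, so counting error alone left each of these values uncertain, with 95% Poisson intervals of 283 to 350, 204 to 272 and 406 to 499 normalized counts. These intervals do not meet, so the sham-treated cultures differed from each other by more than counting error. Even so, the lowest EV value was 7.83 times the highest sham value. The mean went from 334 ± 108 to 3655 ± 164 (SD, n = 3 each). The log2 fold change of 3.45 (SE 0.180) is a fold of 10.9 with a 95% interval of 8.28 to 14.5 (adjusted p = 5.67e-07, edgeR's quasi-likelihood test). It stood 79th of all genes tested by log2 fold change.

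Pim3 had 618, 646 and 437 normalized counts in the sham-treated cultures and 2215, 2137 and 2331 in the EV-treated cultures. Sham 3 was the lowest for Pim3 and the highest for Pim2. The groups did not overlap, and the lowest EV value was 3.31 times the highest sham value. The mean rose from 567 ± 113 to 2228 ± 97.6 (SD, n = 3 each), a log2 fold change of 1.97 (SE 0.131) and a fold of 3.92 with a 95% interval of 3.20 to 4.81 (adjusted p = 2.56e-06, edgeR's quasi-likelihood test). The spread relative to the mean, as the coefficient of variation, was 20.0% over the sham-treated and 4.38% over the EV-treated cultures for Pim3, and 32.4% and 4.49% for Pim2. For Pim1 it was 3.14% and 4.73%.

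Jak2 was the member of its family that rose. Its normalized counts were 5542, 5334 and 5227 in the sham-treated cultures and 14473, 14365 and 13996 in the EV-treated cultures. Both groups were tight, and the lowest EV value was 2.53 times the highest sham value. The mean rose from 5368 ± 160 to 14278 ± 250 (SD, n = 3 each). The log2 fold change was 1.41 (SE 0.0535), a fold of 2.66 with a 95% interval of 2.45 to 2.89 (adjusted p = 6.44e-08, edgeR's quasi-likelihood test).

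**Figure D1:**
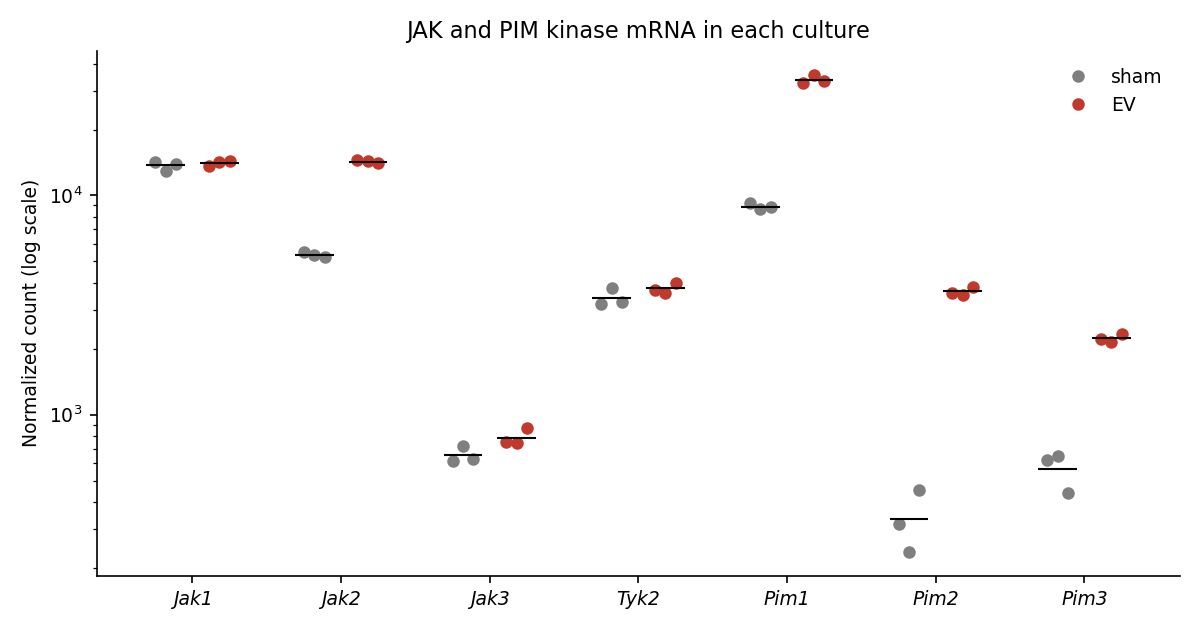
Normalized count (log axis) of each kinase in the 3 sham-treated (grey) and 3 EV-treated (red) cultures, 1 point per culture, with bars at the group means. The groups stand far apart for Jak2 and the 3 Pim genes, overlap for Jak1 and Tyk2, and lie next to each other for Jak3.

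The other JAKs gave values close to or within the sham range. Jak1, which pairs with interferon, common γ chain and gp130 receptors, had 14225, 12949 and 13953 normalized counts in the sham-treated cultures and 13575, 14143 and 14322 in the EV-treated cultures. The groups overlapped, with means of 13709 ± 672 and 14014 ± 390 (SD, n = 3 each). The fold was 1.02 with a 95% interval of 0.936 to 1.12 (adjusted p = 0.708, edgeR's quasi-likelihood test).

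Tyk2, the JAK of the type I interferon, IL-10 and IL-12 receptors, had 3202, 3773 and 3251 normalized counts in the sham-treated cultures and 3719, 3582 and 3994 in the EV-treated cultures. The highest sham value lay above both lower EV values. The fold was 1.10 with a 95% interval of 0.977 to 1.25 (adjusted p = 0.195, edgeR's quasi-likelihood test). The directions for Jak1 and Tyk2 rest on the scaling, since with library totals alone their log2 fold changes were -0.12 and -0.01, against 0.03 and 0.14 with TMM. That scaling moved the median log2 fold change of all genes from -0.01 to -0.16 and the calls from 1632 higher and 1572 lower to 1036 higher and 2342 lower. Leaving out sham 2, the lowest sham value for Jak1, also turned its log2 fold change to -0.01.

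Jak3, which works only with the common γ chain and is best known from lymphocytes, was the least abundant JAK. It had 613, 716 and 629 normalized counts in the sham-treated cultures and 751, 740 and 865 in the EV-treated cultures. The groups did not overlap, but the lowest EV value was only 1.03 times the highest sham value. The means were 653 ± 55.3 and 785 ± 69.3 (SD, n = 3 each), and the fold of 1.20 (95% interval 1.02 to 1.43) had an unadjusted p of 0.0345 and an adjusted p of 0.0844 in edgeR's quasi-likelihood test. It was thus not called, and the interval reaches up to 1.43-fold.

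**Figure D2:**
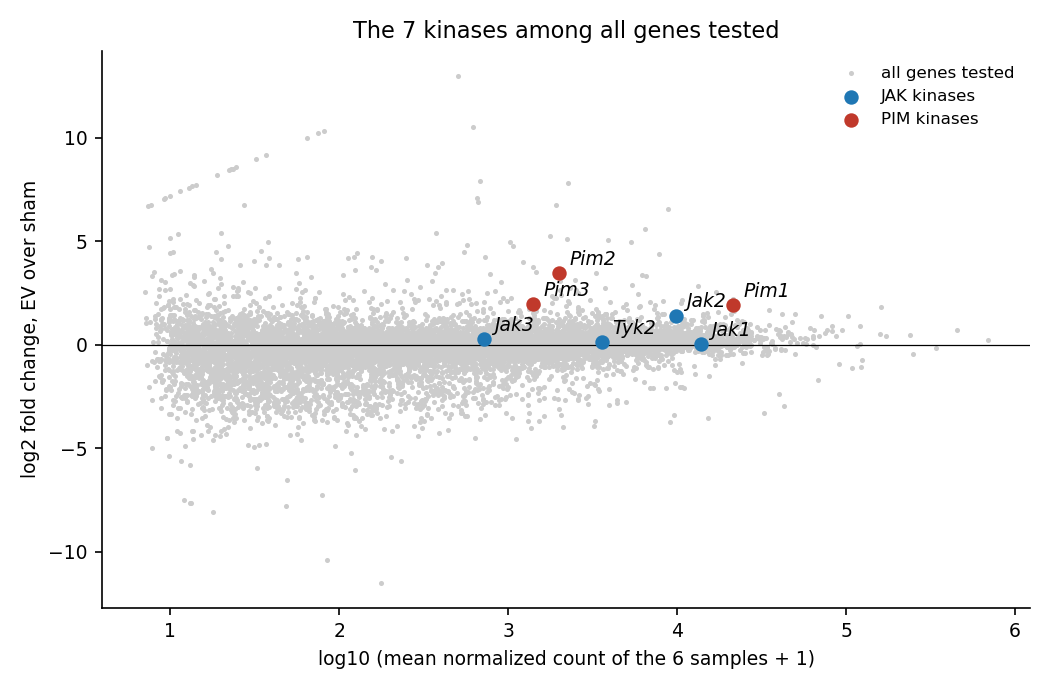
Log2 fold change, EV over sham, against log10 of the mean normalized count over the 6 cultures plus 1, for all 13498 genes tested (grey), with the JAK kinases in blue and the Pim kinases in red. Pim1 and Jak2 sit among the abundant genes, Pim2 is the highest member at a log2 fold change of 3.45, and Jak1, Tyk2 and Jak3 lie near 0.

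Levels of different genes were compared as normalized counts per kb of the longest coding transcript. In the sham-treated cultures the order was Pim1 at 3295 ± 103 per kb, Jak1 at 2794 ± 137, Jak2 at 1067 ± 31.9, Tyk2 at 706 ± 65.6, Pim3 at 234 ± 46.6, Pim2 at 163 ± 53.0 and Jak3 at 162 ± 13.8 (SD, n = 3). Pim2, which ran from 116 to 220 per kb, overlapped both Jak3 at 152 to 178 and Pim3 at 180 to 266. In the EV-treated cultures the order was Pim1 at 12532 ± 592 per kb, Jak1 at 2856 ± 79.5, Jak2 at 2839 ± 49.8, Pim2 at 1788 ± 80.3, Pim3 at 918 ± 40.2, Tyk2 at 780 ± 43.5 and Jak3 at 195 ± 17.3. Here only Jak1 and Jak2 overlapped as neighbours, at 2767 to 2919 and 2782 to 2877 per kb. Pim2 passed from among the 3 lowest of the 7 to above Pim3 and Tyk2. This order depends on which transcript sets the length. With the shortest principal coding transcript, a choice made after seeing the data, Pim2 came to 300 per kb in the sham-treated cultures, above Pim3 at 234, and to 3284 in the EV-treated cultures, above Jak1 at 2856. On that length Jak2 came to 1344 and 3574 per kb, so that in the EV-treated cultures it too lay above Jak1.

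The make-up of each family differed between the groups on the same per kb scale. Jak1 made up 59.1% ± 2.09 of the JAK level in the sham-treated and 42.8% ± 0.784 in the EV-treated cultures, while Jak2 made up 22.6% ± 0.447 and 42.6% ± 1.19 (SD, n = 3). Tyk2 made up 14.9% and 11.7%, and Jak3 3.44% and 2.93%. Among the Pim kinases Pim1 held most of the level in both groups, 89.2% ± 0.130 and 82.2% ± 1.15. Pim2 made up 4.42% ± 1.42 in the sham-treated and 11.7% ± 0.749 in the EV-treated cultures, and Pim3 6.33% and 6.03%. These shares depend on the length as well. With the shortest transcript Pim2 made up 7.82% and 19.6% and Jak2 26.6% and 48.0%.

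**Figure D3:**
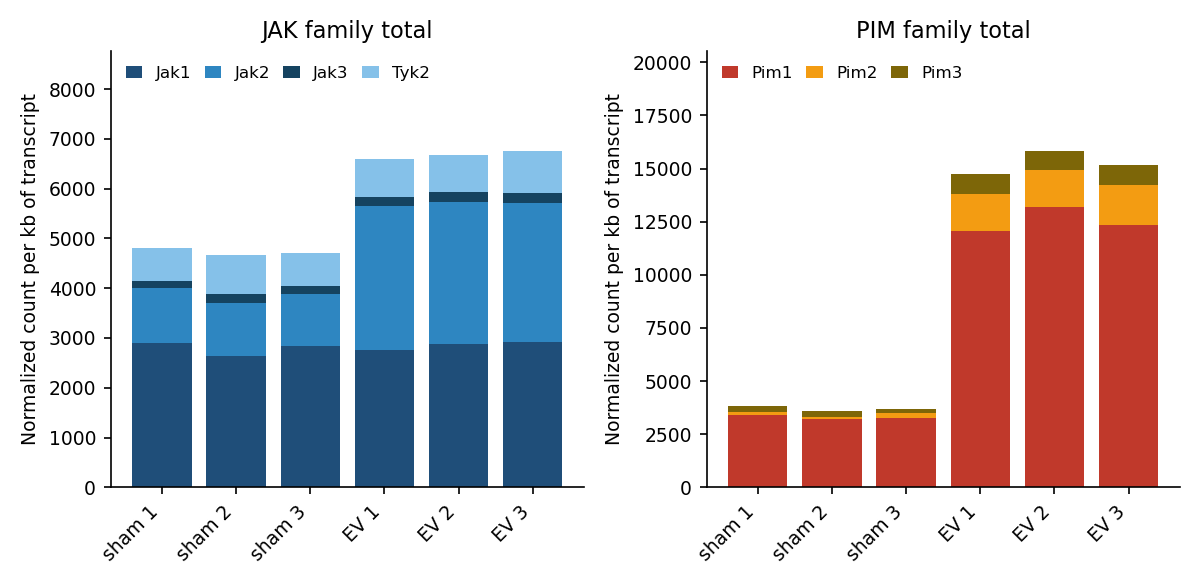
Normalized counts per kb of transcript for the JAK family (left) and the Pim family (right) in each of the 6 cultures, stacked by gene, with different vertical scales on the 2 sides. The JAK bars grow by the Jak2 layer, and the Pim bars grow several-fold, with Pim1 as the bulk of every bar.

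Added up per kb, the JAK family came to 4730 ± 80.1 in the sham-treated and 6670 ± 71.5 in the EV-treated cultures, a ratio of 1.41. The Pim family came to 3692 ± 116 and 15238 ± 537, a ratio of 4.13 (SD, n = 3). Within a culture the Pim total was 0.792, 0.769 and 0.780 of the JAK total in the sham-treated group and 2.23, 2.37 and 2.25 times the JAK total in the EV-treated group. The Pim total was thus below the JAK total in each sham-treated culture and above it in each EV-treated culture.

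To see whether members of a family changed by different amounts, the log2 ratio of their counts was taken within each culture, which does not depend on scaling between libraries. The 9 pairs were compared by a two-sided exact permutation test, which cannot go below p = 0.1 with 3 cultures against 3, so no pair could pass 0.05. The log2 ratio of Pim1 to Pim2 was 4.87, 5.19 and 4.29 in the sham-treated and 3.18, 3.33 and 3.11 in the EV-treated cultures, a difference of -1.57 with no overlap (exact p = 0.1, adjusted p = 0.15 over the 9 pairs). For Pim2 to Pim3 it was -0.97, -1.45 and 0.04 against 0.70, 0.72 and 0.72, a difference of 1.51 without overlap, with nearly all the spread in the sham-treated group. Pim1 to Pim3 gave 3.89, 3.74 and 4.34 against 3.88, 4.06 and 3.84, a difference of -0.07 with overlap (exact p = 0.8).

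Among the JAKs, the ratio of Jak2 to each other member differed without overlap. The log2 ratio of Jak1 to Jak2 was 1.36, 1.28 and 1.42 in the sham-treated and -0.09, -0.02 and 0.03 in the EV-treated cultures, a difference of -1.38. The ratios of Jak2 to Jak3 and to Tyk2 were higher by 1.14 and 1.27 on the log2 scale. Each of these 3 pairs had the smallest exact p possible, 0.1 (adjusted p = 0.15). Jak3 to Tyk2 also did not overlap, with a difference of 0.12 (exact p = 0.1). Jak1 to Jak3 and Jak1 to Tyk2 overlapped, with differences of -0.23 (exact p = 0.2) and -0.11 (exact p = 0.4).

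**Figure D4:**
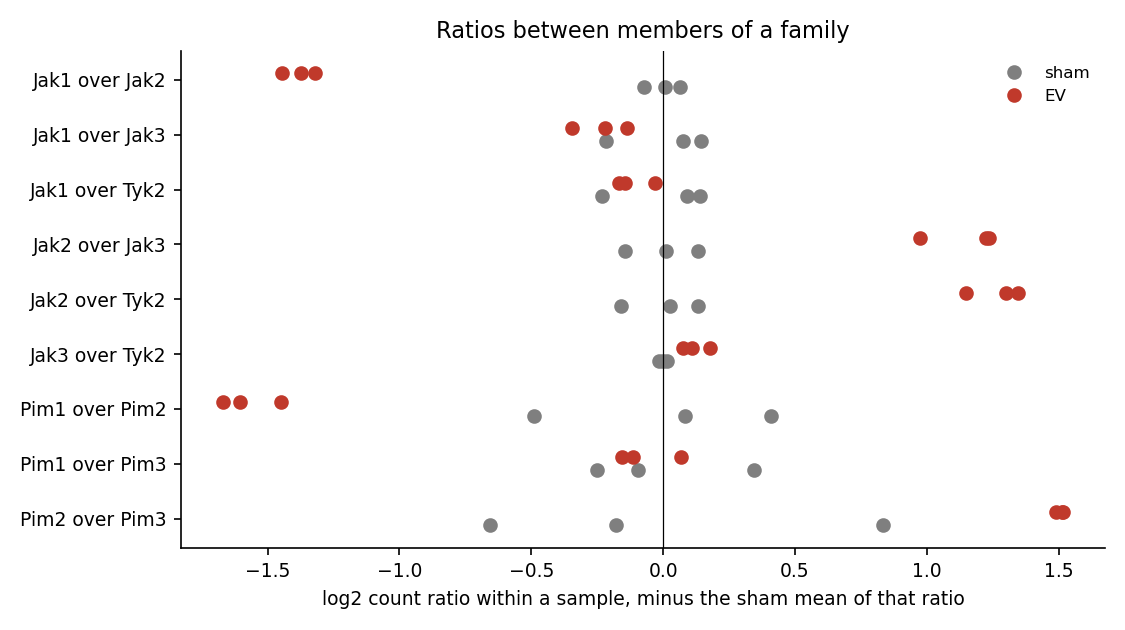
Log2 ratio of counts of 2 members of a family within a culture, minus the sham mean of that ratio, for the 9 pairs, with sham-treated cultures in grey and EV-treated cultures in red. The pairs that hold Jak2 or Pim2 stand clear of the sham cultures. Jak3 over Tyk2 also does not overlap, with a small difference of 0.12, whereas Pim1 over Pim3 overlaps.

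The 3′ UTRs were read for AU-rich words, which are known from short-lived mRNAs of cytokines and immediate early genes. Pim1 held 5 copies of ATTTA, 3.66 per kb, and Pim3 held 5, 5.19 per kb, against a median of 1.31 per kb over 12095 genes. Pim1 also held 3 copies of the longer word TTATTTATT, which 8.25% of genes hold and 1.79% hold at least 2 times. Pim2 had 2.19 and Jak2 1.62 copies of ATTTA per kb, Jak1 3.55, Tyk2 1.02 and Jak3 0, and none of these held the longer word. The density was thus above the median both in members that rose and in Jak1, which was not called.

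Around the kinases, the list of cytokine receptor chains that use JAKs held 34 genes, of which 30 were tested. Of these, 7 (23.3%) were called higher and 4 (13.3%) lower, beside 12.1% and 11.6% of all genes. The median log2 fold change was -0.11 against -0.01 for all genes. Il10ra, the IL-10 binding chain, rose from 602 ± 123 to 3053 ± 93.4 normalized counts (SD, n = 3 each; log2 fold change 2.35). Il6ra, the IL-6 binding chain, fell from 556 ± 182 to 85.2 ± 14.5 (log2 fold change -2.70) and Il7r, the IL-7 receptor, from 1612 ± 498 to 362 ± 78.4 (log2 fold change -2.15). Csf2rb, the common β chain that carries JAK2, went from 56241 to 149786 normalized counts. Csf2rb2, also on the list, was called higher as well, with a log2 fold change of 1.09. Of the partner chains of Csf2rb, Csf2ra was called higher, with 5625 and 6783. Il5ra, with 3076 and 2790, and Il3ra, with 1352 and 1188, were not called. Without EV replicate 3, 4 receptor chains were called higher.

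Of the 7 STATs, which JAKs phosphorylate, 3 (42.9%) were called higher and 0 lower, beside 12.1% and 11.6% of all genes. Their median log2 fold change was 0.20. Stat3, of IL-6 and IL-10 signaling, rose from 5855 ± 271 to 7200 ± 243 normalized counts and Stat2, of interferon signaling, from 1410 ± 119 to 1968 ± 75.3 (SD, n = 3 each). Stat5a and Stat5b, which act below the common β chain, had log2 fold changes of 0.08 and -0.10 and were not called.

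The list labelled JAK inhibitors holds SOCS and PIAS proteins, phosphatases and ubiquitin ligases. It also takes in genes whose products act on STATs rather than on JAKs, such as the PIAS genes and Cish. Of its 22 genes, 12 (54.5%) were called higher and 1 (4.55%) lower, beside 12.1% and 11.6% of all genes. The median log2 fold change was 0.36. The count of 12 higher became 8 without EV replicate 3, 8 with library totals alone and 14 at a threshold of 0.05. The one lower gene was Cblb, a ubiquitin ligase. The count of lower genes was 2 without sham replicate 1 and 0 without EV replicate 1 or 2. The feedback inhibitors Socs1 (log2 fold change 5.10), Cish (4.37) and Socs3 (3.77) changed most. Cish, an inhibitor of STAT5 signaling, had 775, 669 and 719 normalized counts in the sham-treated and 14976, 14438 and 15323 in the EV-treated cultures.

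Of 25 substrates and partners of Pim kinases, 6 (24.0%) were called higher and 2 (8.0%) lower, beside 12.1% and 11.6% of all genes, with a median log2 fold change of 0.06. Cdkn1a, the cell cycle inhibitor p21, rose from 1768 ± 159 to 4990 ± 178 normalized counts and Runx1, a transcription factor of blood cells, from 5517 ± 523 to 11568 ± 532, while the chemokine receptor gene Cxcr4 fell from 22280 ± 943 to 11394 ± 410 (SD, n = 3 each). Bad, whose product Pim kinases phosphorylate, went from 678 to 636 normalized counts (adjusted p = 0.604, edgeR's quasi-likelihood test). Without EV replicate 3 the counts were 3 higher and 1 lower, without EV replicate 1 there was also 1 lower, and without sham replicate 1 there were 4 lower. Of 28 other non-receptor tyrosine kinases, 22 were tested. Among those tested, 9 (40.9%) were called higher and 3 (13.6%) lower, beside 12.1% and 11.6% of all genes, with a median of 0.20. Txk, of the TEC family, rose from 161 ± 33.5 to 986 ± 40.2 normalized counts and Fer from 1701 ± 133 to 5108 ± 184, while Fyn, of the SRC family, fell from 417 ± 120 to 198 ± 25.5 (SD, n = 3 each). Without EV replicate 3, 1 of these kinases was called lower.

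**Figure D5:**
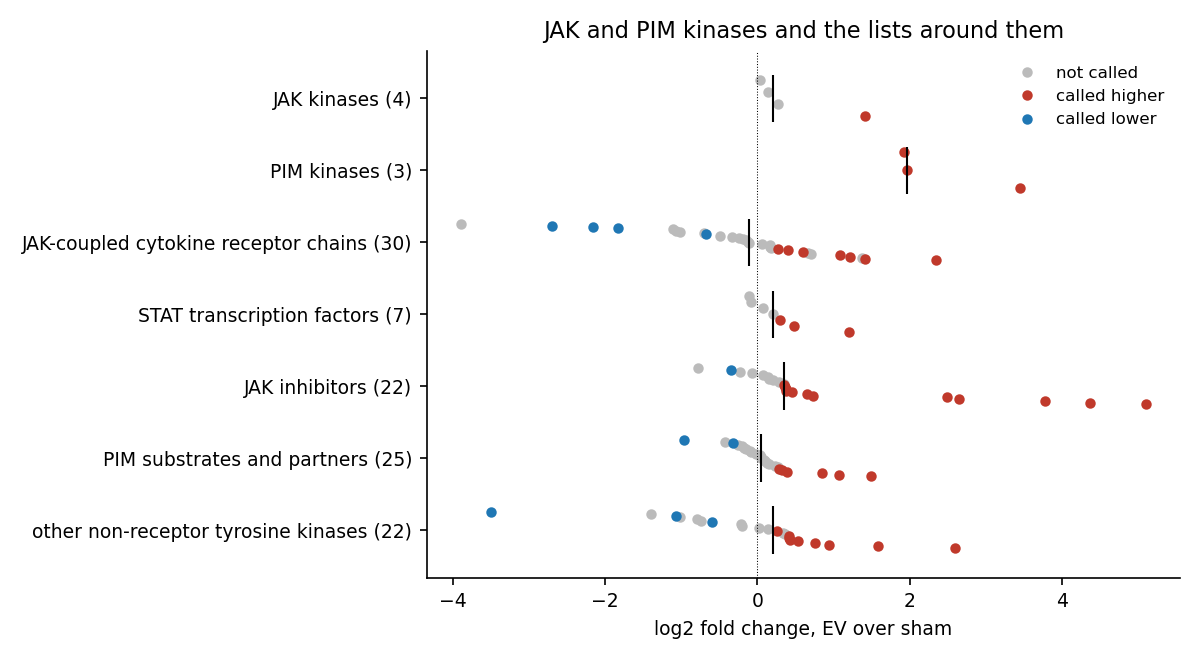
Log2 fold change, EV over sham, of each tested gene of the JAK and Pim families and of the 5 lists around them, with the number of genes in parentheses, calls in red (higher) or blue (lower) and black bars at the medians. All 3 Pim genes and 1 of the 4 JAK genes are called higher, and the JAK inhibitors reach the highest fold changes, up to 5.10.

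Some genes followed nearly the same course as a member over the 6 cultures, by the root mean square difference of log2 normalized counts centred on the sham mean, among 10454 genes with a mean of at least 100. Nearest to Pim2 was Ltb4r2, a leukotriene B4 receptor, at 0.0433, followed by Osm, the cytokine oncostatin M, at 0.212 and Cass4 at 0.224. Nearest to Pim1 were Naaa (0.0497), Gvin3 (0.0573) and the chemokine gene Ccl6 (0.0663), and to Pim3 Adamtsl4 (0.0334), the decoy receptor gene Il1r2 (0.0789) and Ada, adenosine deaminase (0.125). Nearest to Jak2 were Sema4a (0.0574), Cd24a (0.0615) and the IL-1 receptor antagonist gene Il1rn (0.0623). Jak1 was nearest to Taldo1 (0.0154), Tef and Wdr24, Tyk2 to Pxk (0.0273), Csnk1g3 and Kctd13, and Jak3 to Smdt1 (0.0398), Tmub1 and Arfgap3.

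Libraries held 23697620 to 32808674 counts in the sham-treated and 32260914 to 37874426 in the EV-treated group. The defining eosinophil genes were abundant in all libraries, with 455927 to 848419 raw counts of Prg2, the major basic protein, so the markers fit the label. Summed CPM (counts scaled to library size) of 13 eosinophil markers were 32630 to 40350 in the sham-treated and 41860 to 46820 in the EV-treated group. Of these 13 markers, 9 were called higher and 0 lower, beside 12.1% and 11.6% of all genes tested. Of 10 macrophage markers 7 were lower and 1 higher (1530 to 2129 against 1266 to 1412), of 9 tested neutrophil markers 5 were lower and 1 higher (738 to 845 against 524 to 632), and of 7 tested mast cell and basophil markers 5 were higher and 0 lower (155 to 201 against 352 to 424). The higher macrophage marker was Adgre1, with mean normalized counts of 21326 in the sham-treated and 32764 in the EV-treated group. The higher neutrophil marker was Ly6g, with 559 and 3516. Ngp, the most abundant of the neutrophil markers and so a large part of their sum, was not called, with 7950 and 8067. Of 3 tested T cell markers 1, Cd28, was lower (summed CPM 12.3 to 31.6 against 4.09 to 5.28). Raw counts reached 577 for Cd28 in sham 2, 77 for Cd3d in EV 2 and 75 for Cd8a in sham 2. Cd3g, Trac and Cd4, which were not tested, had at most 28 raw counts in any library. No marker in the table was at 0 in every library, but Thy1 and Tpsb2 were at 0 in all sham-treated ones. Elane, Mcpt4, Cma1, Cd3e, Trbc2 and Il2 were not found by symbol in the count table and so were not analysed. These marker levels moved with the treatment, as did the 4 kinases, and their part in the kinase results was not tested. In such bulk RNA, fewer cells of a type and less RNA per cell cannot be told apart.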

How the data were processed

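Poly(A) RNA of 6 cultures was sequenced. The authors used FastQC for read quality, Cutadapt for trimming and Salmon for quantification. The submitters' processing notes name mm10. Versions, annotation and strandedness are not given in the sources used here. The authors deposited a table of estimated counts (16254 genes, not all values whole) and normalized counts, a signal made with DESeq2 and never 0. A deposited table of the authors' own comparison (mean counts, log2 fold changes, statistics and p-values) was not used.

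Estimated counts were rounded and analysed in R 4.3.3 with edgeR 4.0.16, using TMM scaling, filterByExpr, the quasi-likelihood test and Benjamini-Hochberg adjustment over 13498 genes, with a threshold of 0.01. Normalized counts are counts divided by the TMM library size relative to the geometric mean. Each standard error was obtained from the log2 fold change and its F statistic. The 95% fold intervals use the total degrees of freedom of edgeR's test, which are the residual ones plus those borrowed across genes. Poisson intervals cover counting error only. Levels per kb, shared words and 3′ UTR words came from GENCODE vM21 (GRCm38), and promoters from RefSeq. The scripts were tested on simulated data, where each tool made more false calls than its threshold allows and DESeq2 the most. DESeq2 exceeded the limit first set on false calls with one of the random seeds, and the limit was then kept for edgeR alone, so calls by DESeq2 are the more liberal. The power required there had earlier been narrowed to larger changes in well-counted genes.

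The members and lists were chosen with earlier results of these data known, and the lists were written by hand from general knowledge. Named genes are the 7 members, the 3 called genes of each list with the largest absolute log2 fold change, a mean normalized count of at least 100 and no overlap, and the 3 nearest profiles per member (pseudocount 1). One gene under this rule is not reported here. Csf2rb, Csf2rb2, Csf2ra, Il3ra, Il5ra, Stat5a, Stat5b, Cblb, Bad, Adgre1, Ly6g and Ngp are outside the rule. They were chosen after their values were seen. Alternatives were DESeq2 size factors, library totals, no filter, DESeq2 1.42.0, limma 3.58.1 on log2(deposited normalized count + 1), a replicate block, a threshold of 0.05 and leaving out each culture.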

Additional observations from a re-analysis of the deposited data

How the results depend on the processing

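Pim1, Pim2, Pim3 and Jak2 were called higher under all 13 alternatives, and Jak1, Jak3 and Tyk2 under none at 0.01. Over these alternatives the log2 fold changes ran from 1.78 to 1.96 for Pim1, 3.27 to 3.72 for Pim2, 1.82 to 2.07 for Pim3 and 1.26 to 1.44 for Jak2. With library totals alone, Jak1 was at -0.12 (adjusted p = 0.1, range over alternatives 0.1 to 0.934) and Tyk2 at -0.0061 (adjusted p = 0.961, range 0.0381 to 0.961) in edgeR, and leaving out one culture moved Jak1 between -0.0075 and 0.066. Jak3 had adjusted p-values of 0.0393 to 0.434.

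With library totals alone, calls lower were 8 of the receptor chains, 1 STAT, 2 JAK inhibitors, 6 Pim substrates and partners and 6 other tyrosine kinases, and calls higher of the Pim substrates were 3; the construction of that scaling lowers all fold changes. At 0.05, calls lower were 8, 2, 6 and 7 for receptor chains, JAK inhibitors, Pim substrates and other tyrosine kinases. With DESeq2 they were 2, 4 and 5 for the last 3 lists, and with no filter 2 for the JAK inhibitors. Leaving out one culture gave 4 to 7 receptor chains higher, 0 to 2 JAK inhibitors lower, 3 to 7 Pim substrates higher and 1 to 4 lower, and 1 to 4 other tyrosine kinases lower. For these list counts under DESeq2, no filter and left-out cultures the cause was not tested.

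Samples with the same replicate number deviated together only weakly (r = 0.11, 0.08 and 0.04, not all over 0.1), though each correlated best with its own number, so the numbers were not taken to pair the cultures. With the replicate block, 1794 genes were called higher and 1781 lower against 1632 and 1572, JAK inhibitors lower were 2 and other tyrosine kinases lower 5, and no member's call changed (Pim2 3.48, Jak1 0.03). Raw counts in the sham-treated cultures were lowest for Pim2 (193 to 371), Pim3 (360 to 686) and Jak3 (518 to 680), and counting error is largest there relative to the level.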
